A study of Mus musculus with 12 samples.

Results

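A set of 9 genes that mark bone-forming cells were followed in cells from mouse bone marrow cultures: Runx2, Sp7, Alpl, Ibsp, Spp1, Dmp1, Phex, Sost and Mepe. A probe set (the group of array probes that reads 1 transcript) was used only where the array annotation names exactly 1 gene for it, and each gene was read from its brightest such probe set over all 12 arrays. By this rule 7 of the 9 genes were measured, among 18193 genes in all, and Runx2 and Spp1 are not analysed here. Whole bone marrow of female C57BL/6 mice aged 6 weeks was put into primary culture, and the estradiol cultures received 17βE (17β-estradiol, the main circulating estrogen) at 1 nM for 1 week. Control cultures were left without it. The 4 groups, with 3 arrays each, were c-kit+ cells of estradiol cultures, c-kit+ cells of control cultures, CD44+ cells of estradiol cultures and CD44+ cells of control cultures. The labels call the c-kit+ cells stem cells and the CD44+ cells stromal cells. They do not say whether replicates came from separate animals or cultures, so the p-values here rest on the spread between arrays, which may be technical.

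Osteoblasts are the cells that lay down bone matrix and mineralize it, and osteocytes are osteoblasts that have become embedded in that matrix. Commitment of a stromal precursor begins with the transcription factors Runx2 and Sp7 (osterix), which is followed by the phosphatase Alpl and by acidic matrix proteins such as Ibsp and Spp1. The embedded cell turns to Dmp1, Phex, Mepe and Sost, which govern matrix mineral, phosphate handling and the brake on further bone formation. Estrogen protects bone mass, and its loss in the adult female is a known cause of bone loss.

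Values are log2 array signals as the authors deposited them, so a difference of 1 is a 2-fold difference in signal. They ran from 2.47 to 14.81 over all arrays, and array medians lay between 4.75 and 4.84. In these female mice 9 probe sets of 3 Y-linked genes read 2.76 to 3.98, which serves as a guide to background. Other Y-linked probe sets read higher (a mean of 4.30 for Zfy2 and of 6.22 for a Sry probe set), so background differs between probe sets. Apart from this rough guide no gene's level is set against another's. A value within or above the span does not by itself show that a gene is silent or expressed. The leukocyte and macrophage genes Ptprc, Adgre1 and Csf1r read 12.71 to 14.11 on all 12 arrays. Kit, which encodes the c-kit receptor, read 3.92 to 3.97 in c-kit+ cells of estradiol cultures, 3.88 to 4.08 in c-kit+ cells of control cultures, 3.84 to 4.09 in CD44+ cells of estradiol cultures and 3.79 to 4.22 in CD44+ cells of control cultures. The c-kit+ arrays therefore did not read the gene that names them above those of the CD44+ cells. In RNA of a mixed sample, fewer cells of a type and less RNA per cell cannot be told apart.

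Dmp1, which encodes an acidic phosphoprotein of the osteocyte and its mineralizing matrix, was the one gene of the 7 whose array values moved with the groups. In CD44+ cells of estradiol cultures it read 5.43, 4.48 and 4.88, against 4.12, 3.63 and 3.68 in CD44+ cells of control cultures. The groups do not overlap, and the lowest estradiol array stands above the highest control array. In c-kit+ cells the values were 3.97, 3.50 and 3.68 in estradiol cultures, against 3.37, 3.35 and 3.62 in control cultures. These groups overlap, and all 6 c-kit+ arrays lie within the span of the Y-linked probe sets. The group means of Dmp1 ran from 4.93 ± 0.48 in CD44+ estradiol cells through 3.81 ± 0.27 in CD44+ control cells and 3.72 ± 0.24 in c-kit+ estradiol cells to 3.45 ± 0.15 in c-kit+ control cells (SD, n = 3 each). In this order the second and the third overlap, and so do the third and the fourth.

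**Figure D1:**
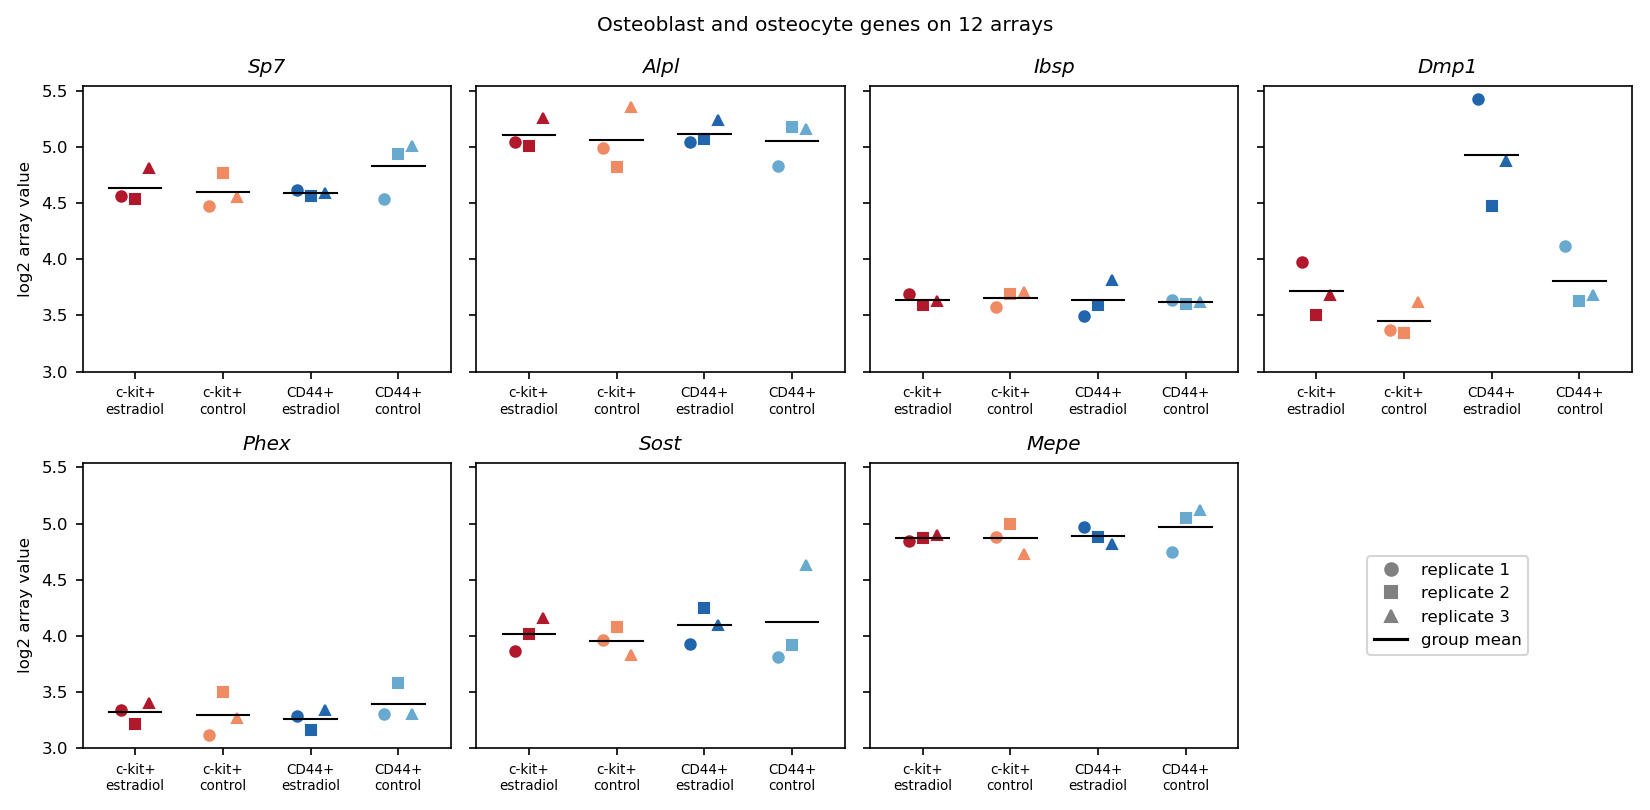
Each panel plots the log2 array value of 1 gene (vertical axis) in the 4 groups (horizontal axis), with 1 point per array, the marker shape giving the replicate number, and a bar at the group mean. Dmp1 read 4.48 to 5.43 in CD44+ cells of estradiol cultures and stayed at or below 4.12 elsewhere, while for the other 6 genes the groups overlap in each of the 4 comparisons of 1 group with another.

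Between the cell fractions, Dmp1 passed the test in estradiol cultures. It was lower in c-kit+ than in CD44+ cells by a log2 difference of -1.21 (SE 0.21, 95% interval -1.67 to -0.75, 0.432-fold, limma adjusted p = 0.006206 over all 18193 genes). Of all genes 2.65% passed there, and Dmp1 was 1 of the 7 bone genes. Leaving out each array in turn kept the call, with differences from -1.43 to -0.96 and adjusted p from 0.001865 to 0.04876. In control cultures the difference was -0.36 (SE 0.21, interval -0.82 to 0.10, adjusted p = 0.5013). There 2.3% of all genes passed and none of the 7. The Dmp1 groups did not overlap in either medium, which held for 18.2% of all genes in estradiol cultures and for 15.7% in control cultures, and Dmp1 was again 1 of the 7. In control cultures the gap was narrow, between 3.62 as the highest c-kit+ value and 3.63 as the lowest CD44+ value.

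The estradiol effect on Dmp1 in CD44+ cells, which rests on the same CD44+ estradiol arrays as the fraction difference above, lay at the threshold of 0.05 and its call turned on the model. The log2 difference was 1.12 (SE 0.21, interval 0.66 to 1.58, 2.17-fold, limma adjusted p = 0.05405), so it did not pass. Same-numbered CD44+ arrays deviated together, and the differences within the 3 pairs were 1.31, 0.85 and 1.20. With the replicate number as a block the adjusted p was 0.006362, and 114 genes passed in place of 53. In the fit without the block 0.291% of all genes passed and none of the 7, and 12.7% of all genes had groups that do not overlap, with Dmp1 as the 1 such gene of the 7. Without CD44+ estradiol replicate 2 the adjusted p was 0.02585, without CD44+ control replicate 1 it was 0.03221 and without c-kit+ control replicate 3 it was 0.0289. Over the 12 fits that leave out an array it ran up to 0.301.

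In c-kit+ cells the estradiol effect on Dmp1 was 0.27 (SE 0.21, interval -0.19 to 0.73, limma adjusted p = 0.9994). In that comparison 0.181% of all genes passed and none of the 7, and 7.81% had groups that do not overlap, again none of the 7. The mean effect over both fractions was 0.70 (SE 0.15, interval 0.37 to 1.02, adjusted p = 0.05121), where 0.951% of all genes passed and none of the 7. The effect in c-kit+ cells minus that in CD44+ cells was -0.85 (SE 0.30, interval -1.50 to -0.19, limma adjusted p = 0.9998). No gene passed in that comparison (0% of 18193, with 296 at an unadjusted p under 0.05), so the effects of estradiol on Dmp1 in the cell fractions were not shown to differ.

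**Figure D2:**
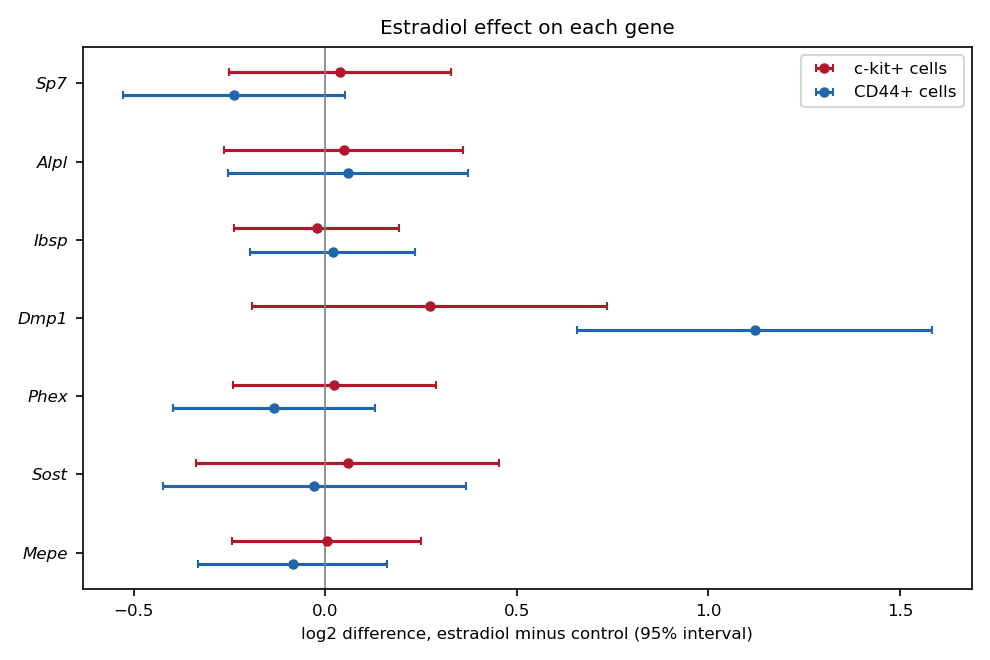
Points give the log2 difference of estradiol minus control cultures for each of the 7 genes (rows) in c-kit+ and CD44+ cells, and bars give the 95% interval of the limma fit. The interval of Dmp1 in CD44+ cells, 0.66 to 1.58, lies above 0, and those of the other 6 genes cross 0 in both fractions.

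The 3 probe sets of Dmp1 did not read alike. The values above come from 1443745_s_at, the brightest over the 12 arrays. It was so through the estradiol arrays, with means of 3.72 against 3.40 for 1443746_x_at in c-kit+ estradiol cells and 4.93 against 4.43 in CD44+ estradiol cells, while in c-kit+ control cells (3.45 against 3.46) and CD44+ control cells (3.81 against 3.82) it was no brighter. The choice of probe set thus used the estradiol arrays and favours a higher estradiol value for Dmp1. The partner 1443746_x_at, drawn from the same source sequence, read 5.13, 3.88 and 4.28 in CD44+ cells of estradiol cultures, against 4.17, 3.34 and 3.95 in CD44+ cells of control cultures. These groups overlap, and the difference was 0.61 (SE 0.28, limma adjusted p = 0.9232 over 34945 probe sets). In estradiol cultures its difference of c-kit+ minus CD44+ cells was -1.03 (SE 0.28, adjusted p = 0.1143), in the same direction as that of the brightest probe set but not past the threshold. The third probe set, 1426005_at, rests on another source sequence and read 3.25 to 3.46 on all 12 arrays. Its estradiol difference in CD44+ cells was 0.018 (interval -0.17 to 0.21) and its fraction difference in estradiol cultures was -0.0076 (interval -0.20 to 0.19). The suffixes s and x mark probe sets whose probes may match more than 1 transcript, and whether another transcript adds to these signals was not tested. Averaged over the 3 probe sets, the fraction difference in estradiol cultures was -0.75 (adjusted p = 0.03286) and the estradiol difference in CD44+ cells was 0.58 (adjusted p = 0.3561).

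**Figure D3:**
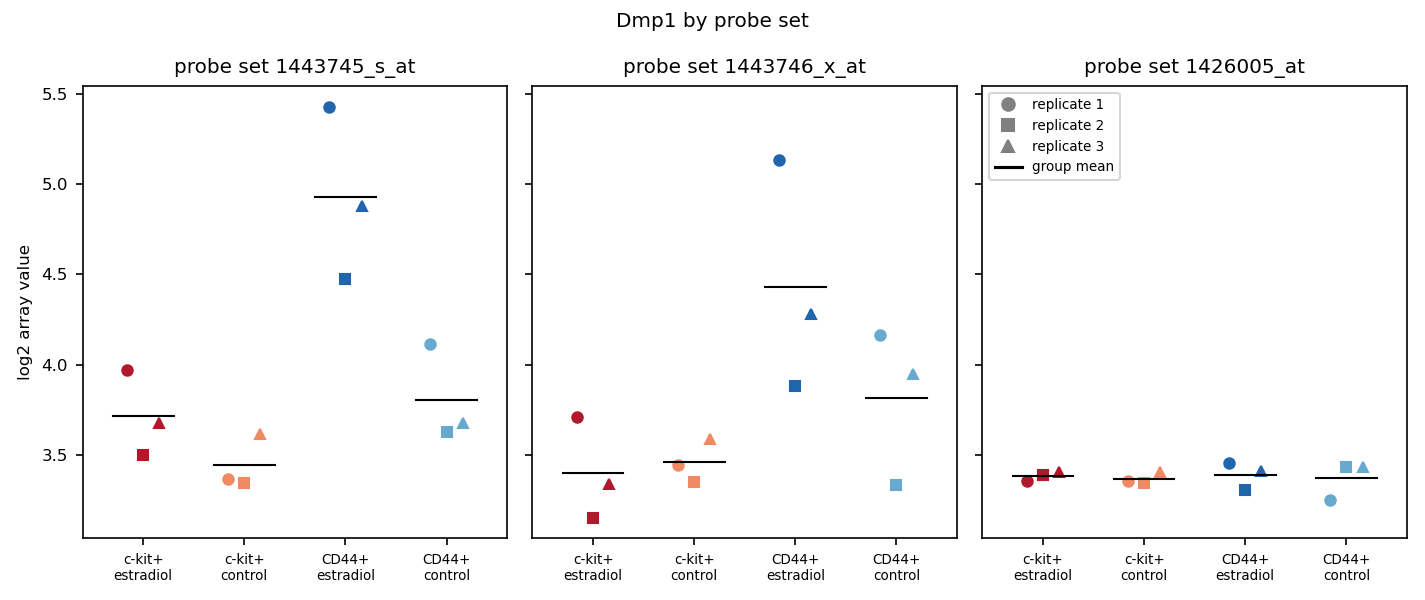
Log2 array values (vertical axis) of the 3 Dmp1 probe sets in the 4 groups, 1 point per array with the marker shape giving the replicate number and a bar at the group mean. The brightest probe set separates CD44+ estradiol arrays from all others, its x_at partner does so only in part, and the third stays between 3.25 and 3.46.

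Dmp1 lies on mouse chromosome 5 beside other genes for bone and tooth matrix proteins. The order in the RefSeq annotation of GRCm38.p6 is Dspp, Dmp1, Gm31048 (a long noncoding RNA), Ibsp, Mepe, Spp1 and Pkd2 (which encodes a channel protein). The promoter windows of the measured neighbours are shown because Dmp1, Ibsp and Mepe share this stretch of chromosome, while their brightest probe sets differ in array pattern. Each window holds 250 bases before and 50 bases after a RefSeq start site and lies on the plus strand, and capitals mark the RUNX core TGTGGT, to which Runx2 and its relatives bind, read on either strand. Dmp1 has a window at chr5:104197325-104197624 and another at chr5:104202367-104202666, Ibsp has one at chr5:104299037-104299336 and Mepe one at chr5:104325079-104325378.
Dmp1, first window: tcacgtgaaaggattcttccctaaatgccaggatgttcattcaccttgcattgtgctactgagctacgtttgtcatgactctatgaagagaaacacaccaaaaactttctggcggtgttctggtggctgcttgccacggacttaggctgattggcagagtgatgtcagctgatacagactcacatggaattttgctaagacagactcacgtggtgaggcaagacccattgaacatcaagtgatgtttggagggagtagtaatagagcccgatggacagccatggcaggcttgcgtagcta
Dmp1, other window: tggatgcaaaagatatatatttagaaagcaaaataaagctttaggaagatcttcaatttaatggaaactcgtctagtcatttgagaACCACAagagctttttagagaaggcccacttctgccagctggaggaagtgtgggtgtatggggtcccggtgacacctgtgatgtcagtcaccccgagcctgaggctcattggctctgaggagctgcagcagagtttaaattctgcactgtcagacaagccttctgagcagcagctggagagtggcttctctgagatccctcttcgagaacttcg
Ibsp: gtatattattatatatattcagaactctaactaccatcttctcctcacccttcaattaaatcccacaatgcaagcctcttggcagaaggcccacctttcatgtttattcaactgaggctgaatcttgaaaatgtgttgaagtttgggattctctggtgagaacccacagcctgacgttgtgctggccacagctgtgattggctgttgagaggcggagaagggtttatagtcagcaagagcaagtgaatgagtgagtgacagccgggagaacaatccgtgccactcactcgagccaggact
Mepe: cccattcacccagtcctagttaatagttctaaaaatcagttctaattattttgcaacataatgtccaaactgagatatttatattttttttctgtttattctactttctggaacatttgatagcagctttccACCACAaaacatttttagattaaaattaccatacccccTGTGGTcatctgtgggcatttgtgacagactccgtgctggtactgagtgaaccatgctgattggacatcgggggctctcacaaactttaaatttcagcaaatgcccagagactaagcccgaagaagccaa
The second Dmp1 window holds the RUNX core 164 bases before the start site, and the Mepe window holds it 118 and 80 bases before. The Ibsp window and the first Dmp1 window hold none. Of the 8 windows of 6 genes (Sp7 has none in the table), 2 contain the RUNX core, against 16.8% of all 32851 RefSeq promoter windows. The AP-1 motif TGANTCA is in 0 of the 8 windows and in 7.81% of all, and the full estrogen response element (the half-site GGTCA, then its reverse complement 3 bases on) is in 0 of the 8 and in 0.07% of all, on either strand. A match is a description of these letters and not a bound site. The estradiol differences of Ibsp and Mepe in CD44+ cells were 0.020 (interval -0.20 to 0.24) and -0.085 (interval -0.33 to 0.16). That of Dmp1 was 1.12 by its brightest probe set, 0.61 by 1443746_x_at (limma adjusted p = 0.9232) and 0.018 by 1426005_at. Ibsp read within the span of the Y-linked probe sets. Whether Dmp1 parts from these neighbours thus depends on the probe set.

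The other 6 genes, taken in the order of their roles, passed in none of the 6 comparisons. Their differences in the fits lay between -0.24 and 0.28 on the log2 scale, the farthest being those of Sp7. Sp7, the zinc finger factor that commits cells to the osteoblast line, averaged 4.64 ± 0.15 in c-kit+ estradiol cells, 4.60 ± 0.15 in c-kit+ control cells, 4.59 ± 0.025 in CD44+ estradiol cells and 4.83 ± 0.25 in CD44+ control cells (SD, n = 3 each). In CD44+ cells the arrays of estradiol cultures read 4.61, 4.57 and 4.59, inside the span of the control arrays at 4.54, 4.94 and 5.01. The difference was -0.24 (SE 0.13, interval -0.53 to 0.052, limma adjusted p = 0.9489).

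Alpl, the tissue-nonspecific alkaline phosphatase that frees phosphate for mineral, averaged 5.11 ± 0.14 in c-kit+ estradiol cells, 5.06 ± 0.27 in c-kit+ control cells, 5.12 ± 0.10 in CD44+ estradiol cells and 5.06 ± 0.19 in CD44+ control cells (SD, n = 3 each). Its 4 group means lie closer together than the arrays of any single group. The estradiol difference was 0.048 in c-kit+ cells (interval -0.26 to 0.36) and 0.059 in CD44+ cells (interval -0.25 to 0.37). Phex, a membrane endopeptidase whose loss causes phosphate wasting, read 3.11 to 3.58 on all arrays, within the span of the Y-linked probe sets. Its estradiol difference was 0.024 in c-kit+ cells (interval -0.24 to 0.29) and -0.13 in CD44+ cells (interval -0.40 to 0.13).

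Ibsp, bone sialoprotein, which seeds mineral in the matrix of the osteoblast, read 3.50 to 3.82 on all 12 arrays. Its group means lay between 3.62 and 3.66, again within the span of the Y-linked probe sets. Mepe, a matrix phosphoglycoprotein of the osteocyte that restrains mineralization, averaged 4.87 ± 0.027 in c-kit+ estradiol cells, 4.87 ± 0.13 in c-kit+ control cells, 4.89 ± 0.079 in CD44+ estradiol cells and 4.97 ± 0.20 in CD44+ control cells (SD, n = 3 each). The groups overlap in each comparison.

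Sost encodes sclerostin, the inhibitor of Wnt signalling that osteocytes secrete. It averaged 4.01 ± 0.15 in c-kit+ estradiol cells, 3.96 ± 0.12 in c-kit+ control cells, 4.09 ± 0.16 in CD44+ estradiol cells and 4.12 ± 0.44 in CD44+ control cells (SD, n = 3 each). The wide spread of the last group comes from its replicate 3, at 4.63, beside 3.82 and 3.92. The estradiol difference in CD44+ cells was -0.028 (interval -0.42 to 0.37), and without that array it was 0.23 (adjusted p = 0.9998). The second Sost probe set, 1450179_at, read 3.47, 3.55 and 3.61 in CD44+ cells of estradiol cultures, against 3.80, 3.64 and 3.67 in CD44+ cells of control cultures. These groups do not overlap, and the difference was -0.16 (interval -0.36 to 0.043, limma adjusted p = 0.9543 over 34945 probe sets). Groups did not overlap for 12.7% of genes read by their brightest probe sets, and the share over all probe sets was not computed.

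For these 6 genes, the 95% intervals of the estradiol effect bound any change to between 0.792-fold and 1.37-fold in c-kit+ cells and between 0.694-fold and 1.29-fold in CD44+ cells. On a probe set near background an array difference understates a difference in RNA, so the bounds are those of the array signal. The median estradiol difference over the 7 genes was 0.039 in c-kit+ cells and -0.028 in CD44+ cells, against 0.016 and 0.010 over all genes. The median fraction difference was -0.010 in estradiol cultures and -0.11 in control cultures, against 0.026 and 0.0052 over all genes.

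Part of the wider matrix program differed between the cell fractions. Of 19 measured genes of bone matrix and mineralization (23 listed), 12 were lower in c-kit+ than in CD44+ cells of estradiol cultures and 12 in control cultures, the same 12 genes, and 0 were higher. Over all 18193 genes, 424 were lower and 59 higher in estradiol cultures, and 320 lower and 98 higher in control cultures. The median difference over the 19 was -2.00 in estradiol cultures and -1.84 in control cultures. Serpinh1, the collagen chaperone, was lower in c-kit+ cells, with log2 differences of -3.17 (SE 0.31, limma adjusted p = 0.0002262) in estradiol cultures and -2.87 (SE 0.31, adjusted p = 0.0004747) in control cultures. The fibrillar collagen chain Col5a2 was lower too (-3.42 in estradiol and -3.20 in control cultures, SE 0.36 in each), as were the proteoglycan Bgn (-3.22 in estradiol cultures) and the collagen crosslinking oxidase Lox (-2.71 in control cultures). The remaining members that passed in both media were Col1a2, Col1a1, Sparc, Ogn, Postn, Cdh11, Mgp and Ank. The other 7 passed in neither medium. In estradiol and control cultures Fam20c differed by 0.29 and 0.51, Ifitm5 by -0.023 and 0.16, and Smpd3 by -0.095 and -0.018. Pth1r differed by 0.14 and -0.0099, Slc20a1 by -0.17 and 0.033, Slc20a2 by -0.21 and 0.057, and Omd by -0.24 and -0.35. Group means of Omd and Pth1r did not exceed the highest Y-linked value in any group. Under estradiol none of the 19 passed in CD44+ cells, beside 0.291% of all genes. There 17 of the 19 had a difference above 0, as had 53.2% of all genes, and the median was 0.40, against 0.010 over all genes. Fam20c had the smallest p (0.75, limma adjusted p = 0.1144).

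**Figure D4:**
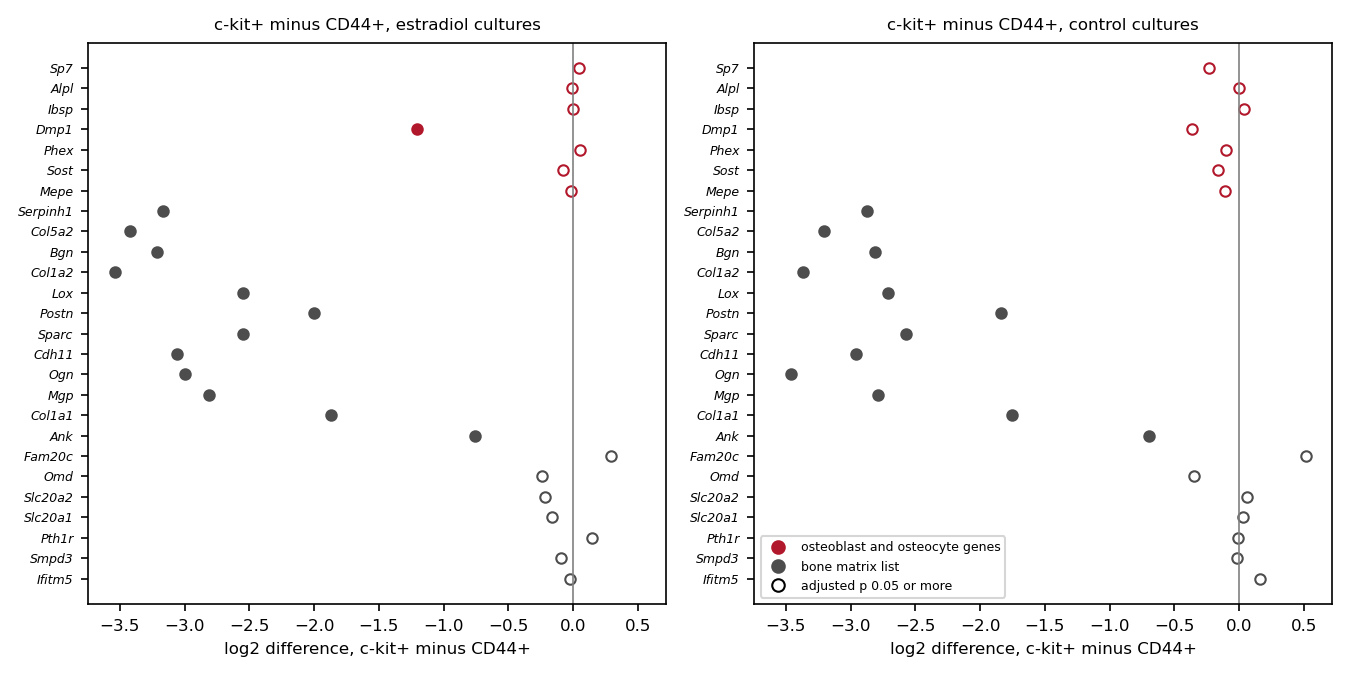
Log2 differences of c-kit+ minus CD44+ cells (horizontal axis) in estradiol cultures (left) and control cultures (right) for the 7 osteoblast and osteocyte genes and the 19 measured genes of the bone matrix list; filled points passed an adjusted p of 0.05. Matrix genes reach -3.54, whereas Dmp1 at -1.21 in estradiol cultures is the one filled point among the 7.

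Stromal markers moved in the same direction as Dmp1 between the fractions. The summed level of 15 measured stromal markers of 16 listed (the log2 of their summed signal) was 12.64 to 12.85 in c-kit+ estradiol cells, 12.05 to 12.69 in c-kit+ control cells, 13.67 to 14.22 in CD44+ estradiol cells and 13.45 to 13.90 in CD44+ control cells. Bright genes weigh most in this sum, and the contractile marker Acta2 alone read 12.25 to 12.83 in CD44+ estradiol cells. Dim markers add little to it. Of the 15, 7 were lower in c-kit+ than in CD44+ cells of estradiol cultures and 6 in control cultures, and none was higher. Of all 18193 genes, 424 were lower in estradiol cultures and 320 in control cultures. Among the first-listed, Pdgfrb differed by -2.91 in estradiol and -2.87 in control cultures, Col3a1 by -3.42 in estradiol and -3.09 in control cultures, and Pdgfra by -1.59 in estradiol cultures and, without passing, by -1.25 in control cultures (adjusted p = 0.05998). Under estradiol 0 of the 15 passed in CD44+ cells, beside 0.291% of all genes. There Pdgfrb differed by 0.80, Col3a1 by 0.65 and Pdgfra by 0.060. Of the 15, 12 had a difference above 0, as had 53.2% of all genes, with a median of 0.066, against 0.010 over all genes. Vcam1, an adhesion molecule of marrow stroma, had the smallest p (1.12, SE 0.38, limma adjusted p = 0.5903). Within CD44+ cells the summed level was 14.22, 13.67 and 13.99 in replicates 1 to 3 of estradiol cultures, beside Dmp1 at 5.43, 4.48 and 4.88, and 13.90, 13.45 and 13.85 in those of control cultures, beside Dmp1 at 4.12, 3.63 and 3.68. Within the 3 same-numbered pairs the summed level was higher in estradiol cultures by 0.32, 0.23 and 0.13, and that of the 19 matrix genes by 0.45, 0.41 and 0.29, in the same direction as Dmp1. This direction was not particular to stroma. The leukocyte and macrophage sum was higher by 0.074, 0.11 and 0.41, and the osteoclast sum by 0.093, 0.28 and 0.46. The neutrophil, erythroid and lymphoid sum was higher in 1 of the 3 pairs. The part of stromal cell content in the Dmp1 difference was not tested.

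**Figure D5:**
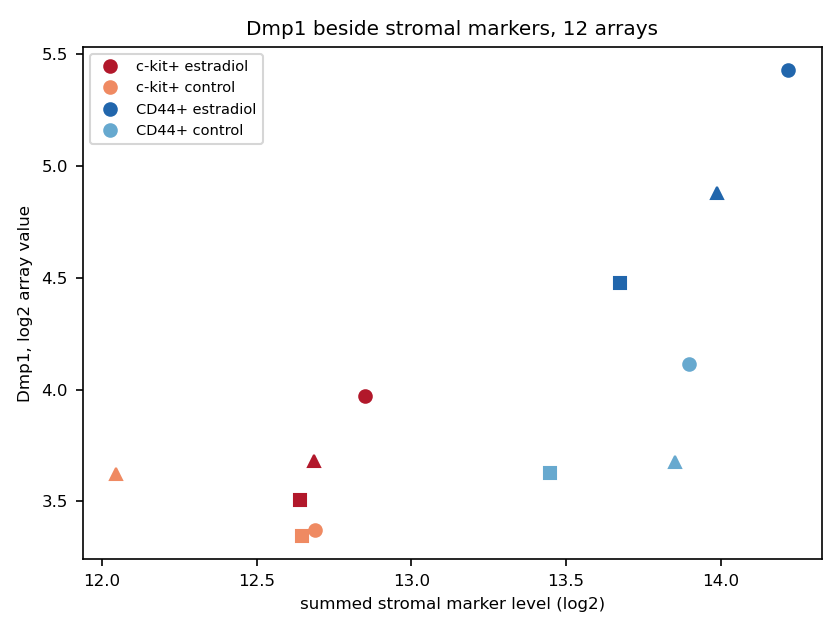
Each point is 1 of the 12 arrays, with the summed level of the 15 measured stromal markers (log2, horizontal axis) and the log2 array value of Dmp1 (vertical axis); colours give the group and shapes the replicate. CD44+ estradiol and CD44+ control arrays overlap along the horizontal axis (13.67 to 14.22 and 13.45 to 13.90) and are apart along the vertical one; within each of the 3 same-numbered pairs the estradiol array is higher on both axes.

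RNA quality also moved with the cell fraction. The signal of the 3′ minus the 5′ probe set of Gapdh, which grows as RNA is degraded or the labelled product is shortened, was 4.23 to 6.17 in c-kit+ estradiol cells, 4.62 to 5.35 in c-kit+ control cells, 3.32 to 4.31 in CD44+ estradiol cells and 2.83 to 4.14 in CD44+ control cells. With it as a covariate, a setting chosen after the data were seen, the Dmp1 difference of c-kit+ minus CD44+ cells in estradiol cultures was -1.53 (limma adjusted p = 0.006147), its estradiol difference in CD44+ cells was 1.10 (adjusted p = 0.02878), and the bone matrix genes lower in c-kit+ cells numbered 11 in estradiol and 9 in control cultures.

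Upstream regulators of osteoblasts were read from a list of 16 transcription factors, 14 of them measured. Under estradiol 0 of the 14 passed in either fraction. This is near the share of all genes, 0.181% in c-kit+ cells and 0.291% in CD44+ cells. Between the fractions 1 of the 14 passed in each medium, beside 2.65% of all genes in estradiol cultures and 2.3% in control cultures. This was Foxc1, a forkhead factor of skeletal and marrow stromal precursors, which was lower in c-kit+ than in CD44+ cells. Its differences were -1.28 (SE 0.23, limma adjusted p = 0.007937) in estradiol cultures and -1.40 (SE 0.23, adjusted p = 0.00565) in control cultures. The estradiol culture call was lost without CD44+ estradiol replicate 1 or 3, with adjusted p up to 0.05166. Among the factors that did not pass, Dlx3 had the smallest p under estradiol, with 0.22 in c-kit+ cells, 0.17 in CD44+ cells and 0.19 in their mean (adjusted p = 0.9994, 0.9489 and 0.4613), and Msx1 in the difference of effects (0.24, adjusted p = 0.9998).

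Of 28 BMP and Wnt genes, 0 passed under estradiol in c-kit+ cells, in CD44+ cells or in their mean. This is near the share of all genes, which was 0.181%, 0.291% and 0.951% in that order. Between the fractions 2 of the 28 were lower in c-kit+ cells of each medium, and 1 was higher in estradiol cultures. Of all 18193 genes, 424 were lower and 59 higher in estradiol cultures, and 320 lower and 98 higher in control cultures. Bmpr1a, a BMP receptor, was lower in c-kit+ than in CD44+ cells, with a difference of -1.03 in estradiol cultures (limma adjusted p = 0.007255, and 0.05154 without CD44+ estradiol replicate 1) and of -1.22 in control cultures (adjusted p = 0.003297). Averaged over its probe sets the difference in estradiol cultures was -0.27 and did not pass. The BMP antagonist Grem1 was lower as well, with -1.09 in estradiol cultures (limma adjusted p = 0.04315, and 0.08014 with the replicate block). In control cultures it was lower by -1.20 (limma adjusted p = 0.02941), and without single arrays the adjusted p ran up to 0.1271. With the block it was 0.05972, though replicate numbers did not pair the fractions in control cultures. Lrp4, a co-receptor that presents sclerostin, was higher in c-kit+ cells of estradiol cultures by 0.58 (adjusted p = 0.03311, and up to 0.1678 without single arrays, lost on leaving out any of the 6 estradiol arrays). Bmp2 (0.50 in c-kit+ cells and 0.36 in the mean of both), Wnt5a (0.30 in CD44+ cells) and Nog (0.36 in the difference of effects) had the smallest p among those that did not pass, with adjusted p from 0.3883 to 0.9998.

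In all, 16 osteocyte-associated genes were measured. Under estradiol 0.951% of all genes passed in the mean of both fractions, and of the 16, 1 rose. This was Mmp14, a membrane collagenase that osteocytes need for their dendrites, by 0.71 (SE 0.13, limma adjusted p = 0.02112), with 0.72 in c-kit+ and 0.69 in CD44+ cells, neither past the threshold. In the matrix list Fam20c, the kinase that phosphorylates secreted matrix proteins including Dmp1, rose likewise by 0.63 (SE 0.12, adjusted p = 0.01913), with 0.52 in c-kit+ cells and 0.75 in CD44+ cells. Each call was lost without 5 of the 12 arrays taken singly. For Mmp14 these were c-kit+ estradiol replicates 2 and 3, c-kit+ control replicate 1 and CD44+ estradiol replicates 2 and 3, with adjusted p up to 0.07927. For Fam20c they were c-kit+ estradiol replicates 1 and 2, CD44+ estradiol replicates 2 and 3 and CD44+ control replicate 3, with adjusted p up to 0.07071. Under quantile normalization Mmp14 did not pass either. Mmp14 averaged 11.08 in c-kit+ estradiol, 10.36 in c-kit+ control, 10.81 in CD44+ estradiol and 10.12 in CD44+ control cells. Fam20c averaged 10.62, 10.10, 10.33 and 9.58 in the same order. Which cell type these rises come from was not tested.

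Between the fractions, Tnfrsf11b, the decoy receptor osteoprotegerin that limits osteoclast formation, was lower in c-kit+ cells, with a difference of -1.64 in estradiol cultures (limma adjusted p = 0.01252, and up to 0.06918 without c-kit+ estradiol replicate 1 or 2). In control cultures the difference was -1.35 (adjusted p = 0.04629), a call lost in 9 of the 12 fits that leave out an array. With the replicate block the limma adjusted p was 0.05224, though replicate numbers did not pair the fractions in control cultures. Irx5, a homeobox factor, was lower in estradiol cultures, with a difference of -1.09 (adjusted p = 0.02894), a call lost in 5 of these 12 fits and, with the block, at 0.07321. Cyp27b1 had the smallest p in the difference of effects (0.34, adjusted p = 0.9998).

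Receptors for osteopontin and related matrix proteins, 8 in all, passed in no comparison. Of all genes the share that passed ran from 0% in the difference of effects to 2.65% between the fractions in estradiol cultures. Itga5, an integrin chain, read nearest to the threshold in 4 of the 6, with 0.86 under estradiol in CD44+ cells (adjusted p = 0.7804), 0.57 in the mean of both fractions, -0.57 in the difference of effects and 0.65 between the fractions in control cultures. Itga9 differed by 0.27 between the fractions in estradiol cultures (limma adjusted p = 0.6638). Cd44, the receptor by which the CD44+ cells are named, differed by 0.21 under estradiol in c-kit+ cells (limma adjusted p = 0.9994). It averaged 12.14 in c-kit+ estradiol, 11.93 in c-kit+ control, 12.33 in CD44+ estradiol and 12.12 in CD44+ control cells. Like Kit, Cd44 did not pass between the fractions.

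Genes whose array pattern is most like that of each bone gene were sought by Pearson correlation over the 12 arrays, among 14207 genes with a mean above the highest Y-linked value of 3.98. The arrays share the group structure, so these values are descriptions. Dmp1 was searched because its mean in CD44+ estradiol cells, 4.93, exceeds that value; its other 3 group means and its mean over all arrays do not, and its likeness to other genes without the CD44+ estradiol arrays was not tested. For Dmp1 they were Irf4, a transcription factor of lymphocytes and macrophages (r = 0.956), the neutrophil chemokine Cxcl5 (r = 0.949) and F3, tissue factor (r = 0.947). Cxcl5 read 6.78, 4.42 and 4.93 in CD44+ cells of estradiol cultures, against 4.43, 3.68 and 3.73 in CD44+ cells of control cultures. As with Dmp1, replicate 1 was the highest of its group in both media. The genes most like Sp7 were Csdc2, 4930413G21Rik and Relt (r from 0.949 to 0.977), those most like Alpl were Prima1, Fbln1 and Zfp689 (0.854 to 0.883), those most like Sost were Cd209b, Nr1d1 and Crybb2 (0.898 to 0.923), and those most like Mepe were 1700001G17Rik, Isl2 and Gm10575 (0.892 to 0.925). Sp7, Sost, Mepe and the genes most like them all read highest on CD44+ control replicate 3. By rank (Spearman) the correlations were 0.818 to 0.860 for Sp7, 0.734 to 0.867 for Sost and 0.802 to 0.916 for Mepe. Ibsp and Phex, whose group means did not exceed the Y-linked probe sets, were not searched.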

How the data were processed

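Gene expression was measured on 12 Affymetrix mouse arrays, 3 for each of 4 groups. Deposited array values are log2 and come from RMA as run by the authors, per the submitters' processing notes, with no version in the sources used here; RMA corrects background, normalizes by quantiles and summarises each probe set. Per the labels' protocols, total RNA was amplified over 2 cycles before hybridization, which shortens product toward the 3′ end. Precision is limited by the number of arrays.

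Of 45101 probe sets, 64 were controls, 34945 named 1 gene, 932 several and 9160 none here. Genes were fitted with limma 3.58.1 in R 4.3.3, with 1 mean per group over 12 arrays, empirical Bayes moderation, Benjamini-Hochberg adjustment over 18193 genes and a threshold of 0.05. Called means past it. The pipeline was tested on simulated data. Tables were made with Python 3.11.15 and pandas 2.3.3. The 6 comparisons were estradiol minus control in each fraction and in their mean, the difference of the 2 effects, and, in each medium, c-kit+ against CD44+ cells. Promoter windows are RefSeq's for GRCm38.p6.

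The bone genes, the lists and the tests were chosen with earlier results of these data known. Named were all bone genes, up to 3 genes of smallest p that passed from each pathway list and comparison (else the 1 of smallest p), the first genes of the marker lists, and the 3 genes most like each bone gene. The 3 Y-linked genes (Eif2s3y, Kdm5d and Uty) were chosen after the data were seen. Alternatives were leaving out each array, a threshold of 0.1, fitting the compared groups alone, the replicate block, array weights, robust moderation with a trend, median centring, quantile normalization, genes no dimmer than the median gene and averaging a gene's probe sets; the other Dmp1 probe sets and the Gapdh covariate were added after the data were seen. Replicate numbers were taken to pair the arrays where all 3 same-numbered deviations correlated above 0.1, which held for CD44+ estradiol with control arrays (0.303, 0.368 and 0.322) and for the fractions in estradiol cultures (0.447, 0.192 and 0.312). It did not hold for c-kit+ estradiol with control arrays (0.345, 0.0916 and 0.253) or for the fractions in control cultures (0.175, 0.122 and -0.208).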

Additional observations from a re-analysis of the deposited data

How the results depend on the processing

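Beside the 6 differences of each bone gene, the alternatives left the Dmp1 call between the fractions in estradiol cultures in place, except that 0 of the 7 genes passed there with Dmp1 read by 1443746_x_at or by 1426005_at; by the x_at set its estradiol difference in c-kit+ cells was -0.058. Under estradiol 1 gene, Dmp1, passed in CD44+ cells and 1 in the mean of both fractions under the trend with robust moderation, the replicate block, the threshold of 0.1 and the Gapdh covariate, 1 in CD44+ cells under median centring, and, under array weights, 2 in CD44+ cells (Dmp1, and Sp7 at -0.32) and 1 in the mean. Without single arrays 0 to 1 passed in each. No bone gene reaches the median level, so that filter gave no count for them; the arrays of the groups compared alone gave none for the mean of both fractions and the difference of effects. The replicate block changed no other call of a bone gene.

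Sign changes were those of differences near 0 that passed in no fit. With the mean over probe sets, Ibsp was at -0.013 under estradiol in CD44+ cells, Sost at -0.028 in the mean of both fractions, and Phex at -0.028 and Sost at 0.022 between the fractions in estradiol cultures. Quantile normalization put Mepe at -0.031 in c-kit+ cells, Sost at 0.0094 in CD44+ cells and Ibsp at 1e-04 in the mean, and between the fractions in estradiol cultures Alpl at 0.031 and Mepe at 0.018. Median centring put Mepe at -0.020 in c-kit+ cells, and in estradiol cultures Alpl at 0.060, Ibsp at 0.070 and Mepe at 0.054. Array weights put Mepe at -0.038 in c-kit+ cells, Alpl at -0.040 and Sost at 0.17 in CD44+ cells, Ibsp at 0.014 in the mean, Alpl at 0.14 and Sost at -0.16 in the difference of effects, and Alpl at -0.19 and Sost at 0.053 between the fractions in control cultures. The Gapdh covariate put Sost at 0.19 in control cultures and Alpl at 0.17, Ibsp at 0.016, Sost at 0.24 and Mepe at 0.019 in estradiol cultures.

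Leaving out each array in turn, the estradiol difference in c-kit+ cells ran from -0.048 to 0.12 for Sp7, -0.068 to 0.20 for Alpl, -0.062 to 0.0025 for Ibsp, -0.066 to 0.13 for Phex, -0.014 to 0.13 for Sost and -0.066 to 0.068 for Mepe. In CD44+ cells it ran from -0.052 to 0.12 for Alpl, -0.070 to 0.089 for Ibsp and -0.18 to 0.23 for Sost, and in the mean of both from -0.0046 to 0.13 for Alpl, -0.046 to 0.033 for Ibsp and -0.061 to 0.14 for Sost. The difference of effects ran from -0.13 to 0.14 for Alpl, -0.11 to 0.048 for Ibsp and -0.17 to 0.24 for Sost. Between the fractions the range was -0.15 to 0.12 for Alpl and -0.32 to 0.089 for Sost in control cultures, and in estradiol cultures -0.040 to 0.099 for Sp7, -0.088 to 0.049 for Alpl, -0.071 to 0.089 for Ibsp and -0.054 to 0.024 for Mepe. The cause of these changes was not tested.

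Over all genes the estradiol counts moved by over 1.5 times under array weights (55 in c-kit+ cells, 1405 in CD44+ cells and 523 in the mean), the replicate block (70, 114 and 280) and the threshold of 0.1 (54 in c-kit+ and 88 in CD44+ cells), and the c-kit+ count fell to 2 with its own 6 arrays alone. Between the fractions they were 779 and 1058 in estradiol and control cultures under array weights, 250 in estradiol cultures for genes at or above the median level, and in control cultures 196 for the 6 arrays alone, 671 at 0.1 and 254 with the Gapdh covariate. Without single arrays they were 10 to 45 in c-kit+ cells, 22 to 97 in CD44+ cells and 104 to 275 in the mean, and 269 to 594 and 221 to 456 between the fractions in estradiol and control cultures. The count of lower bone matrix genes stayed between 9 and 12.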

Other observations

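Markers of other cell types that the fractions could hold were read beside the bone genes, with no list tested as a whole. Of all 18193 genes, 59 were higher in c-kit+ than in CD44+ cells of estradiol cultures and 98 in control cultures. Of 16 measured leukocyte and macrophage markers (17 listed), 3 were higher in c-kit+ than in CD44+ cells of estradiol cultures and 4 in control cultures. Their summed level was 16.80 to 16.95 in c-kit+ estradiol cells, 16.75 to 16.92 in c-kit+ control cells, 16.64 to 16.82 in CD44+ estradiol cells and 16.39 to 16.71 in CD44+ control cells. Mertk, a receptor for the uptake of dead cells, was higher in c-kit+ cells by 0.91 in estradiol and 1.02 in control cultures. Under estradiol Cd14 rose by 0.43 in the mean of both fractions (limma adjusted p = 0.0148). It was the 1 marker of the 16 that passed there, beside 0.951% of all genes. Of the 16, 14 had a difference above 0, as had 55.7% of all genes.

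Osteoclasts, the bone-resorbing relatives of macrophages, had 10 measured markers of 11 listed, with a summed level of 10.64 to 10.78 in c-kit+ estradiol cells, 10.41 to 10.61 in c-kit+ control cells, 10.73 to 10.91 in CD44+ estradiol cells and 10.45 to 10.64 in CD44+ control cells. Under estradiol 1 of the 10 passed in the mean of both fractions, beside 0.951% of all genes. In that mean 5 of the 10 had a difference above 0, as had 55.7% of all genes. Their median was 0.052, against 0.015 over all genes, so the list did not move as a whole. The marker that passed was Acp5, the acid phosphatase of osteoclasts, which rose by 0.87 (limma adjusted p = 0.002606). Acp5 differed by 0.86 in c-kit+ and 0.88 in CD44+ cells, neither of which passed. Its level averaged 8.91 ± 0.32 in c-kit+ estradiol cells, 8.05 ± 0.22 in c-kit+ control cells, 8.55 ± 0.25 in CD44+ estradiol cells and 7.67 ± 0.13 in CD44+ control cells (SD, n = 3 each). Between the fractions 2 of the 10 were lower in c-kit+ than in CD44+ cells of estradiol cultures. These were Ctsk, the collagen-degrading cathepsin (-0.96), and Dcstamp (-0.83). In control cultures 1 was lower, Dcstamp (-1.04), and none was higher in either medium. Of all 18193 genes, 424 were lower in estradiol cultures and 320 in control cultures. Calcr, the calcitonin receptor, read 3.30 to 3.64 on all arrays, within the span of the Y-linked probe sets. Of 11 stem, progenitor and mast cell markers (13 listed), 2 were lower in c-kit+ than in CD44+ cells of estradiol cultures, Hoxa9 (-2.98) and Cd34 (-1.43), and Hoxa9 was lower in control cultures too (-2.21), with none higher. These counts stand beside the same 424 and 320 lower of all genes. The summed level of this list was 8.75 to 9.09 in c-kit+ estradiol cells, 8.88 to 8.96 in c-kit+ control cells, 9.78 to 10.27 in CD44+ estradiol cells and 9.58 to 10.24 in CD44+ control cells.

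No marker of the adipocyte (6 measured of 8 listed), chondrocyte (8 of 8), endothelial (8 of 8) or neutrophil, erythroid and lymphoid list (9 of 12) passed under estradiol. Of all genes 0.181% passed in c-kit+ cells, 0.291% in CD44+ cells and 0.951% in their mean. Between the fractions Fabp4, 1 of the 6 adipocyte markers, was higher in c-kit+ cells of control cultures (1.17). Col2a1, 1 of the 8 chondrocyte markers, was lower in c-kit+ cells of both media (-0.69 in estradiol and -0.85 in control cultures). So was Ebf1 (-1.95 in estradiol and -1.46 in control cultures). The other 8 markers of the neutrophil, erythroid and lymphoid list did not pass, so Ebf1 alone does not show such cells.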
